A study of Mus musculus with 10 samples.

Results

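Integrins are cell surface receptors made of 1 alpha and 1 beta subunit, and 10 of their genes were followed here in microglia and in whole brain tissue: the alpha genes Itgam, Itgal, Itga4, Itga6, Itga9 and Itgav and the beta genes Itgb1, Itgb2, Itgb3 and Itgb5. They were matched by gene name in a table of 56748 genes, which holds 16 other integrin subunit genes, 26 in all. The choice of the 10 was made with earlier results of these data known. All 10 passed the filter on low counts. RNA-seq counts were available for 5 samples of CD11b+ cells sorted from brain, labelled microglia, and for 5 samples of hemi brains, labelled as all brain cells and called bulk brain here. Each sort held 400000 cells, and every mouse was a young C57BL/6 male without any stated treatment. The alpha subunit gene Itgam encodes CD11b itself, so its enrichment is what the sort selected. Nothing in the labels assigns the 5 samples of a group to separate mice, and a p-value therefore reflects sample-to-sample spread that could be technical.

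An integrin leaves the endoplasmic reticulum only once an alpha chain has joined a beta chain, and the pair that forms decides which ligand is bound. Leukocytes carry the beta-2 integrins, which bind ICAM proteins and complement fragments. The beta-1 integrins bind laminins, fibronectin and VCAM-1, and the alpha-v integrins bind matrix proteins with an RGD motif, among them vitronectin and the latent form of TGF-beta. Binding is switched on from inside the cell, when talin and kindlin attach to the tail of the beta chain.

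Library totals were 25087489 to 28514509 counts in microglia and 25845049 to 34709215 counts in bulk brain. All 10 microglia markers examined (P2ry12, Tmem119 and Csf1r among them) were higher in the sorted cells, with log2 differences of 5.46 to 7.55, and all 7 neuron, 7 astrocyte, 7 oligodendrocyte, 4 oligodendrocyte precursor and 8 endothelial markers were lower. All 7 markers of border-associated macrophages, which also carry CD11b, were higher, with summed levels of 478 to 618 CPM in microglia, against 9.90 to 11.9 CPM in bulk brain (counts per library scaled to a common total, CPM). Over all genes tested, 37.2% were higher in microglia and 43.9% lower, at the threshold given below. Some of these markers passed the low-count filter through 1 group alone, so their direction was largely set by the filter. Of the lists that were lower, oligodendrocyte markers left the largest sum in microglia, 144 to 246 CPM, against 5660.3 to 7589 CPM in bulk brain. Bulk brain replicates 1 and 2 stood apart from replicates 3 to 5. Between libraries, edgeR's biological coefficient of variation came to 12.3% in microglia and 32.9% in bulk brain, but 6.55% over bulk brain replicates 3 to 5. It was 22.5% between bulk brain replicates 1 and 2, which thus also differed from each other. In tissue RNA, fewer cells of a type and less RNA per cell cannot be told apart.

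Integrin transcripts were abundant in the sorted cells. Summed over the 10 genes, they reached 5011 to 5344 CPM in microglia, against 268 to 329 CPM in bulk brain. Of the 10 genes, 9 passed the threshold of 0.05 (edgeR's quasi-likelihood test with p-values adjusted over 18969 genes), all of them higher in microglia. Over all genes tested, 81% passed in either direction and 37.2% were higher. The libraries of the groups did not overlap for the same 9 genes, while 74.7% of all genes tested did not overlap and 34.2% did so with microglia higher. All 9 were at least 2-fold higher, against 27.8% of all genes, and 6 at least 8-fold higher, against 10.4%. The median log2 difference (microglia minus bulk brain) was 4.32 over the 10 genes and -0.14 over all genes tested. Since the 10 were chosen with earlier results known, their distance from all genes describes them and is not a test of integrin genes. Itga4 was the gene that did not pass.

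**Figure D1:**
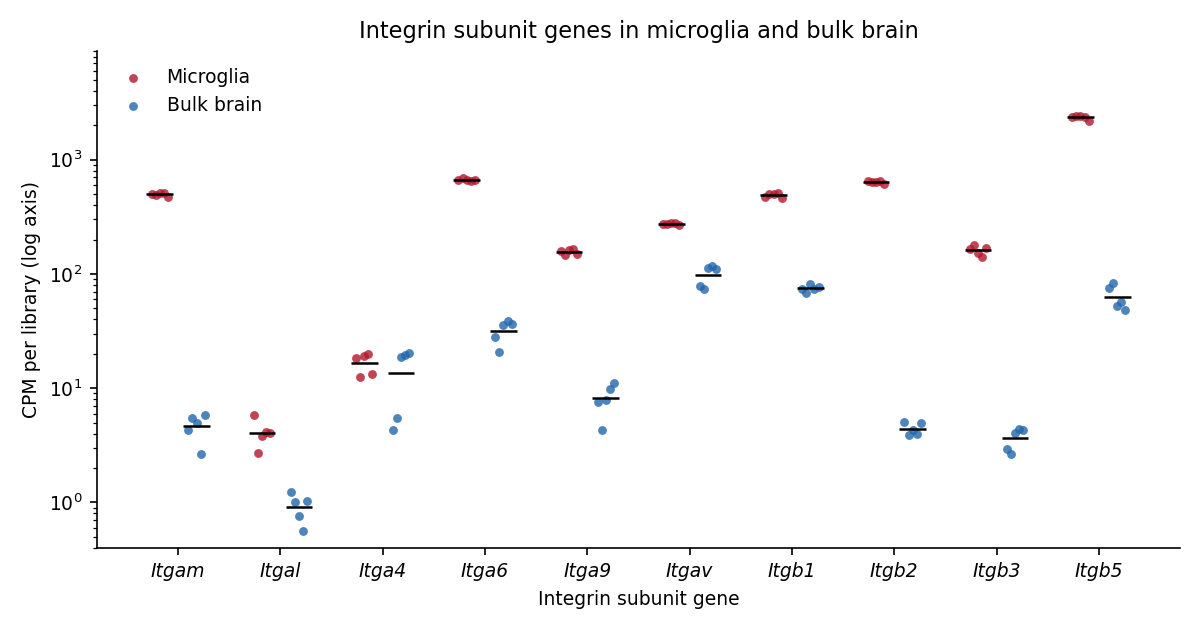
Levels of the 10 integrin genes in each library, in CPM on a log axis, with microglia in red to the left of bulk brain in blue; each point is 1 library and each bar the mean of 5. The microglia points lie above all bulk brain points for 9 genes, and for Itga4 the groups overlap, with bulk brain replicates 1 and 2 at 4.27 and 5.43 CPM and replicates 3 to 5 at 18.8 to 20.3 CPM.

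The leukocyte beta-2 genes showed the widest and one of the narrower gaps between the groups. Itgb2, the beta subunit shared by all leukocyte beta-2 integrins (ENSMUSG00000000290, plus strand of chromosome 10, 77366086 to 77401542 in GRCm39), stood at 645, 639, 639, 655 and 616 CPM in the microglia libraries, against 5.01, 3.90, 4.26, 3.95 and 4.93 CPM in bulk brain. Its microglia values lay within a narrow band more than 100-fold above every bulk brain value, and its log2 difference was 7.18 ± 0.12 (SE; edgeR adjusted p = 2.8e-12). Itgam, the alpha chain of complement receptor 3 (ENSMUSG00000030786, chromosome 7 of GRCm39, 127661812 to 127717663, plus strand), stood at 506, 488, 514, 512 and 472 CPM in microglia, against 4.33, 5.48, 4.91, 2.67 and 5.84 CPM in bulk brain, a log2 difference of 6.74 ± 0.21 (SE). The lowest bulk brain value was that of replicate 4.

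Itgal, the alpha chain of LFA-1, which binds ICAM-1 on lymphocytes and other leukocytes (ENSMUSG00000030830, chromosome 7, plus strand, 126895432 to 126934310), was scarce by comparison with its partner. It stood at 5.80, 2.68, 3.78, 4.10 and 4.09 CPM in microglia, against 1.23, 1.01, 0.764, 0.564 and 1.02 CPM in bulk brain. The groups did not overlap, and the log2 difference was 2.15 ± 0.29 (SE; edgeR adjusted p = 2.4e-05). Bulk brain thus held Itgal at 22.5% of the microglia level, Itgam at 0.932% and Itgb2 at 0.690%, where the 10 microglia markers ranged from 0.533% to 2.26%. The 8 neutrophil markers summed to 6.13 to 14.4 CPM in microglia, against 0.385 to 1.04 CPM in bulk brain. S100a8, S100a9, Camp and Ngp could be tested and were higher in microglia, where 37.2% of all genes tested were. They passed the low-count filter through their microglia counts, so that direction was largely set by the filter. Ly6g, Mpo, Elane and Retnlg were not tested. They had 12, 2, 2 and 96 counts over the microglia libraries, against 6, 12, 2 and 4 over bulk brain. The 6 monocyte markers summed to 26.4 to 39.2 CPM in microglia, against 29.4 to 65.2 CPM in bulk brain, and the list was split. Of the 4 tested, Ccr2 (mean of 25.6 CPM in microglia, against 0.308 CPM in bulk brain) and Chil3 were higher in microglia, and Vcan and Ace, with 23.1 and 26.6 CPM in bulk brain, were lower. Over all genes tested, 37.2% were higher and 43.9% lower. Ccr2 and Chil3 passed the low-count filter through their microglia counts, so their direction was largely set by the filter. The 10 lymphocyte markers summed to 0.417 to 1.79 CPM in microglia, against 1.28 to 3.52 CPM in bulk brain. None of these lists had a defining marker at 0 in microglia, and the part of these cell types in the Itgal difference was not tested.

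The proximal promoters of Itgam and Itgb5, the alpha gene that defines the sort and the most abundant of the 10 genes, are shown because their base composition and short motifs differ. RefSeq windows from 250 bases before to 50 bases after a gene start (build GRCm38.p6, an earlier build than that of the counts) were found for 6 of the 10 genes: Itgam, Itga4, Itga9, Itgav, Itgb1 and Itgb5. The Itgam window is chr7:128062390-128062689 and the Itgb5 window chr16:33829415-33829714, both on the plus strand and written 5′ to 3′. Capitals mark the core GAGGAA bound by the myeloid factor PU.1 (or its reverse complement TTCCTC) in Itgam, and the GC box GGGCGG bound by Sp1 (or CCGCCC) in Itgb5.
Itgam: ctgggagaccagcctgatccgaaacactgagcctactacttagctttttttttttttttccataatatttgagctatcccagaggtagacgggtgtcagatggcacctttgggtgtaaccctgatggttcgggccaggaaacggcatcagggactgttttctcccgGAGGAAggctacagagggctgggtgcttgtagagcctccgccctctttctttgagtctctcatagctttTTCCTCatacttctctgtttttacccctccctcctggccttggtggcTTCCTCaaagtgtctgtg
Itgb5: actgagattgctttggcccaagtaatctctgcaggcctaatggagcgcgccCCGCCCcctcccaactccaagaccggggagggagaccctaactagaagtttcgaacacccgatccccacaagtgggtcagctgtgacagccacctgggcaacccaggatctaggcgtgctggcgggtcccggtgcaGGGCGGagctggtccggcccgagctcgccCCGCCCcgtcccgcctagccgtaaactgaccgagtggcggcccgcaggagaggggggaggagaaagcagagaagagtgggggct
GAGGAA occurred 3 times in the Itgam window and was not found in that of Itgb5, and GGGCGG occurred once in the Itgam window and 3 times in that of Itgb5. On either strand, GAGGAA was found in 3 of the 6 windows (Itgam, Itgav and Itgb1) and in 28.3% of all 32851 RefSeq windows, and GGGCGG in 5 of 6 (all but Itga9) and in 35.7%. The motifs did not overlap each other. GC content was 50.3% in the Itgam window and 65.7% in the Itgb5 window, with a median of 52.7% over all windows. It was 67.3% in the windows of Itgav and Itgb1, which like Itgam held both motifs, 64.3% in Itga4 and 56.7% in Itga9. Itgam and Itgb5 were picked for their difference, so the contrast describes them alone. A match of such short motifs is a description and not a binding site.

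The beta-1 genes moved to different degrees. Itgb1, the most widely used beta chain (ENSMUSG00000025809, chromosome 8, 129412135 to 129459681, plus strand), stood at 469, 506, 499, 510.2 and 467 CPM in microglia, against 73.3, 67.9, 82.4, 74.5 and 77.2 CPM in bulk brain. Its bulk brain values were among the steadiest of the 10 genes, and the log2 difference was 2.71 ± 0.09 (SE; edgeR adjusted p = 1.1e-10). Itga6, a laminin receptor chain (ENSMUSG00000027111, plus strand of chromosome 2, 71575960 to 71688760), reached 665, 686, 659, 647 and 659 CPM in microglia, against 28.0, 20.8, 35.6, 38.5 and 36.5 CPM in bulk brain, a log2 difference of 4.38 ± 0.17 (SE; edgeR adjusted p = 5.4e-10). Endothelial cells also carry Itga6, and their 8 markers summed to 32.5 to 65.4 CPM in microglia, against 267 to 355 CPM in bulk brain. The part of endothelial transcripts in the Itga6 values was not tested.

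Itga9, whose product pairs with beta-1 and binds tenascin-C and osteopontin (ENSMUSG00000039115, chromosome 9, 118435758 to 118730071, plus strand), stood at 159, 148, 163, 166 and 150 CPM in microglia, against 7.58, 4.27, 7.93, 9.83 and 11.2 CPM in bulk brain. All microglia values exceeded all bulk brain values, with a log2 difference of 4.27 ± 0.23 (SE; edgeR adjusted p = 6.9e-09). Of the genes that overlap it on the opposite strand, the noncoding Gm2415 had 2096 counts over all libraries beside 21200 for Itga9, and the strand setting of the counting is not given in the sources used here.

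Itga4, whose product pairs with beta-1 or beta-7 and binds VCAM-1 and fibronectin (ENSMUSG00000027009, chromosome 2, 79085770 to 79163467, plus strand), stood at 18.4, 12.6, 19.3, 19.8 and 13.2 CPM in microglia, against 4.27, 5.43, 18.8, 19.6 and 20.3 CPM in bulk brain. The microglia values fell between bulk brain replicates 1 and 2 below and replicates 3 to 5, which overlapped them or lay above. The Itga4 log2 difference was 0.29 ± 0.41 (SE; edgeR adjusted p = 0.54), and over the alternatives tried it ranged from -0.38 to 0.59. Against bulk brain replicates 3 to 5 alone it was -0.38 (edgeR adjusted p = 0.037, lower in microglia), and without replicate 1 or replicate 2 it was -0.08 or -0.06. Its direction therefore depended on which bulk brain libraries were used.

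Among the alpha-v genes, the beta partners differed far more between the groups than the alpha chain. Itgav (ENSMUSG00000027087, chromosome 2, 83554741 to 83637260, plus strand) stood at 276, 274, 278, 282 and 269.5 CPM in microglia, against 78.1, 73.9, 113, 118 and 111 CPM in bulk brain. It was the called gene with the smallest log2 difference of the 10, 1.48 ± 0.14 (SE; edgeR adjusted p = 1.2e-06), or 1.12 against bulk brain replicates 3 to 5 alone. Itgb5, a beta chain known to pair with alpha-v alone and to bind vitronectin (ENSMUSG00000022817, chromosome 16, 33650035 to 33769708, plus strand), reached 2366, 2392, 2414, 2383 and 2191 CPM in microglia, against 75.8, 83.0, 52.4, 56.6 and 48.8 CPM in bulk brain. Its log2 difference was 5.21 ± 0.18 (SE; edgeR adjusted p = 1.6e-10), and here bulk brain replicates 1 and 2 were the higher ones.

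Itgb3, the beta chain of the vitronectin receptor and of the platelet fibrinogen receptor (ENSMUSG00000020689, chromosome 11, 104498826 to 104561302, plus strand), stood at 165, 178, 154, 140.2 and 169.7 CPM in microglia, against 2.93, 2.63, 4.08, 4.40 and 4.32 CPM in bulk brain. The groups were far apart, with a log2 difference of 5.46 ± 0.18 (SE; edgeR adjusted p = 1.2e-10). Itga2b, the platelet partner of Itgb3, went the other way, at 0.677 ± 0.295 CPM in microglia, against 2.62 ± 0.90 CPM in bulk brain (SD, n = 5 each). The 8 platelet markers summed to 26.9 to 33.5 CPM in microglia, against 1.72 to 2.57 CPM in bulk brain. Of the 5 tested, 4 were higher in microglia, where 37.2% of all genes tested were. Gp9, Treml1 and Clec1b passed the low-count filter through their microglia counts, so their direction was largely set by the filter. Gp9 alone held a mean of 18.3 CPM of the summed platelet level, and Ppbp, Gp1bb and Gp6 had 0 counts in microglia. The part of platelet transcripts in the Itgb3 difference was not tested.

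Divided by gene length, the order of the 10 genes differed between the groups. In microglia the levels per kilobase ran from Itgb5 (661 ± 25.4 CPM per kilobase, SD, n = 5) through Itgb2 (209 ± 4.64), Itgb1 (120.1 ± 5.11), Itgam (99.2 ± 3.58), Itga6 (72.5 ± 1.57), Itgb3 (27.3 ± 2.48), Itgav (25.7 ± 0.432), Itga9 (20.4 ± 1.05) and Itga4 (1.19 ± 0.248) to Itgal (0.622 ± 0.171). Neighbours in that order did not overlap between libraries, with the exception of Itgb3 and Itgav. In bulk brain the order began with Itgb1 (18.4 ± 1.31 CPM per kilobase, SD, n = 5) and Itgb5 (17.8 ± 4.26), which overlapped, followed by Itgav (9.21 ± 1.96) and Itga6 (3.49 ± 0.807). Itgb2, Itga9, Itga4, Itgam and Itgb3 came next, between 1.44 and 0.622 CPM per kilobase, each overlapping its neighbour, and Itgal was lowest at 0.140 ± 0.0393. Itgb5 and Itgb2 led the sorted cells, while Itgb1, Itgb5 and Itgav led the tissue. With the length of the longest coding transcript of an earlier annotation in place of the table's gene length, Itga6 moved above Itgb1 in microglia, at 154 and 129 CPM per kilobase, and Itgav above Itgb3 without overlap, at 39.1 and 27.9 CPM per kilobase. In bulk brain Itgb5 then overlapped Itgav, and Itga4 stood above Itga9 with overlap.

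Partner balance was compared as the ratio of alpha to beta counts per kilobase within each library, which does not depend on the scaling between libraries. In bulk brain the transcripts of the alpha and the beta chain can come from different cell types. A tissue ratio is therefore not a balance within any cell. Of 8 known pairs with both chains among the 10 genes, 7 differed between microglia and bulk brain with no overlap (two-sided exact permutation over samples, p = 0.0079, which is the lowest value 5 against 5 allows; adjusted p = 0.0091 over the 8 pairs). The pairs share genes and are not independent. Among single genes, 74.7% of all tested did not overlap between the groups. A share over other gene pairs is not given here, so the 7 are not set apart from gene pairs in general. The ratio of Itgam to Itgb2 was the one that did not pass.

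For Itgam and Itgb2, the log2 ratio was -1.07, -1.11, -1.03, -1.08 and -1.10 in microglia, against -0.93, -0.23, -0.51, -1.28 and -0.48 in bulk brain. Thus Itgb2 was counted 2.11 times as often per kilobase as Itgam in microglia and 1.61 times as often in bulk brain. The difference of -0.39 was within the overlap of the libraries (exact permutation p = 0.12, adjusted p = 0.12). It rests on 1 library: without bulk brain replicate 4 the difference was -0.54 (exact permutation, adjusted p = 0.0079). For Itgal and Itgb2 the mean log2 ratio was -8.43 ± 0.39 in microglia, against -3.39 ± 0.34 in bulk brain (SD, n = 5 each), a difference of -5.04. Itgb2 therefore exceeded Itgal per kilobase by 345-fold in microglia and 10.5-fold in bulk brain.

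Of the beta-1 pairs, those of Itga6 and Itga9 shifted toward the alpha chain in microglia and those of Itga4 and Itgav away from it. The Itga6 to Itgb1 log2 ratio averaged -0.73 ± 0.07 in microglia, against -2.43 ± 0.29 in bulk brain (SD, n = 5 each), a difference of 1.70. For Itga9 and Itgb1 it averaged -2.56 ± 0.08 in microglia, against -4.18 ± 0.47 in bulk brain, a difference of 1.62. For Itga4 and Itgb1 it averaged -6.68 ± 0.31 in microglia, against -4.52 ± 1.04 in bulk brain, a difference of -2.16 that became -2.91 against bulk brain replicates 3 to 5 alone. The means of Itgav and Itgb1 were -2.23 ± 0.05 in microglia, against -1.02 ± 0.25 in bulk brain, a difference of -1.20. The level of these ratios depends on the gene length used, so that with the longest coding transcript the Itga6 to Itgb1 log2 ratio in microglia was 0.26, while the difference between the groups does not.

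Both beta-3 and beta-5 stood far higher against alpha-v in microglia than in tissue. The Itgav to Itgb3 log2 ratio was -0.13, -0.24, -0.01, 0.14 and -0.20 in microglia, against 3.87, 3.94, 3.93, 3.88 and 3.82 in bulk brain. The chains were thus near parity per kilobase in the sorted cells, while Itgav exceeded Itgb3 by 14.8-fold in tissue. With the longest coding transcripts the mean log2 ratios were 0.49 in microglia and 4.46 in bulk brain. The Itgav to Itgb5 log2 ratio was -4.70, -4.72, -4.72, -4.67 and -4.62 in microglia, against -1.55, -1.76, -0.48, -0.54 and -0.41 in bulk brain. Per kilobase, Itgb5 exceeded Itgav by 25.7-fold in microglia and by 1.93-fold in bulk brain, or by 18.3-fold in microglia and 1.37-fold in bulk brain with the longest coding transcripts. Within bulk brain this ratio separated replicates 1 and 2 from the rest, and against replicates 3 to 5 alone the difference was -4.21 where it was -3.74 against all 5.

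**Figure D2:**
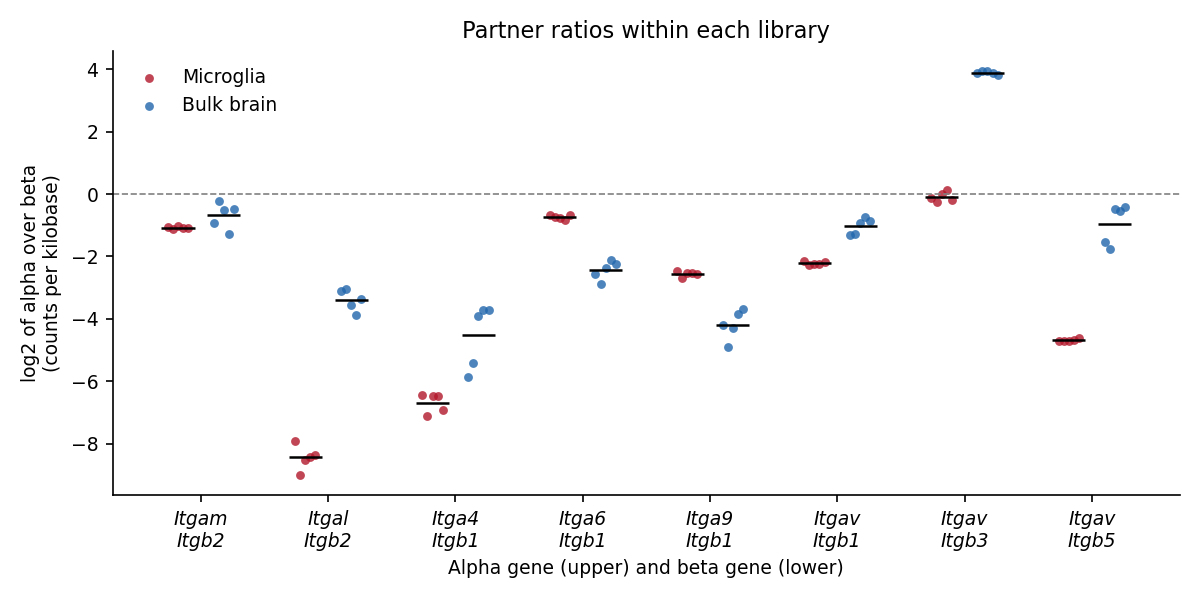
Log2 ratio of alpha to beta counts per kilobase for 8 partner pairs, with microglia in red to the left of bulk brain in blue; each point is 1 library, bars are means of 5 and the dashed line marks equal levels. The groups overlap for Itgam and Itgb2, and the Itgav to Itgb3 ratio is near 0 in microglia and between 3.82 and 3.94 in bulk brain.

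As shares of all 8 beta genes per kilobase, Itgb5 made up 64.8% ± 0.543 of the beta sum in microglia, against 35.1% ± 8.30 in bulk brain (SD, n = 5 each). Itgb2 made up 20.5% ± 0.349 in microglia, against 2.85% ± 0.342 in bulk brain. The share of Itgb1 was lower, at 11.8% ± 0.317 in microglia, against 36.3% ± 2.57 in bulk brain. Itgb3 held 2.68% ± 0.285 in microglia, against 1.23% ± 0.282 in bulk brain. Each of these 4 shares differed without overlap (exact two-sided permutation p = 0.0079, adjusted p = 0.0079 over the 4 shares), but shares of 1 sum are not independent. Their size depends on the division by length: from CPM alone, the difference was -14.8 percentage points for Itgb1 where it was -24.5 per kilobase, and 3.07 for Itgb3 where it was 1.46, with the same direction and p for all 4. Itgb8, a further partner of alpha-v known for activating latent TGF-beta, and Itgb4, the partner of alpha-6 in epithelia and Schwann cells, made up 0.0118% ± 0.00451 and 0.00435% ± 0.00140 in microglia, against 17.0% ± 6.26 and 6.27% ± 0.427 in bulk brain. The Itgb8 share was 11.1% and 9.41% in bulk brain replicates 1 and 2 and 20.9% to 22.5% in replicates 3 to 5.

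**Figure D3:**
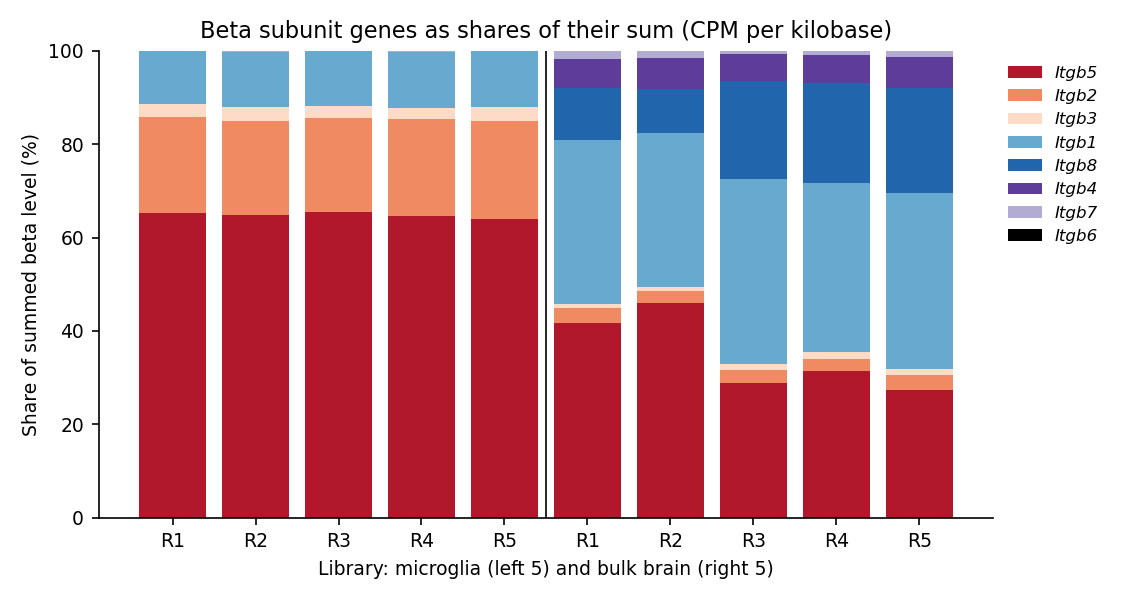
Share of each of the 8 integrin beta genes in their summed level (CPM per kilobase, in percent), 1 bar per library, with the 5 microglia libraries left of the 5 bulk brain libraries. Itgb5 holds 64.0% to 65.4% in microglia, against 27.3% to 46.1% in bulk brain, and Itgb8 holds 9.41% to 22.5% in bulk brain.

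The 16 other integrin genes did not share the pattern of the 10, which were chosen with earlier results of these data known. Of the 13 that could be tested, 4 were higher in microglia, 8 were lower and 1, Itga10, did not pass (edgeR, same threshold; 37.2% of all genes were called higher and 43.9% lower), with a median log2 difference of -3.16. Their sum was 88.6 to 99.8 CPM in microglia, against 168 to 249 CPM in bulk brain. Itgax, which encodes CD11c and also pairs with beta-2, stood at 28.8 ± 1.71 CPM in microglia, against 0.185 ± 0.0819 CPM in bulk brain (SD, n = 5 each), a log2 difference of 7.22 ± 0.24 (SE). The bulk brain libraries held only 32 counts of Itgax in all. The gene passed the low-count filter through its microglia counts, so the direction was largely set by the filter. Itga5, the fibronectin receptor chain, stood at 40.9 ± 3.06 CPM in microglia, against 4.27 ± 0.774 CPM in bulk brain (3.26 ± 0.15 SE). Itgae, the alpha chain of the E-cadherin receptor, had a log2 difference of 3.61 and its partner Itgb7 one of 1.29. The kinase gene Haspin, which lies on the opposite strand within Itgae, had 1363 counts beside 1073 for Itgae, so that the value for Itgae is uncertain.

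The laminin receptor chains Itga3 and Itga7 and the beta chains Itgb4 and Itgb8 were much scarcer in microglia than in tissue. Itgb8 stood at 1.34 ± 0.53 CPM in microglia, against 95.5 ± 34.8 CPM in bulk brain (SD, n = 5 each), a log2 difference of -6.15 ± 0.36 (SE; edgeR adjusted p = 1.4e-08). Bulk brain replicates 1 and 2 held 62.6 and 52.8 CPM of Itgb8, and the other 3 held 118 to 125 CPM. Itgb4 differed by -6.15, Itga3 by -5.91 and Itga7 by -5.74. The collagen receptor chains Itga1 and Itga11 differed by -3.16 and -4.38, Itga8 by -3.76 and Itga2b by -1.95. Microglia replicate 1 held 31 of the 48 microglia counts of Itga8 and 6 of the 9 of Itga11, and without it the Itga8 log2 difference was -4.90 and the Itga11 log2 difference -5.52. Astrocyte, endothelial and mural cells express several of these genes, and all 7 astrocyte, all 8 endothelial and all 6 tested pericyte and smooth muscle markers were lower in microglia. Their part in these differences was not tested.

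**Figure D4:**
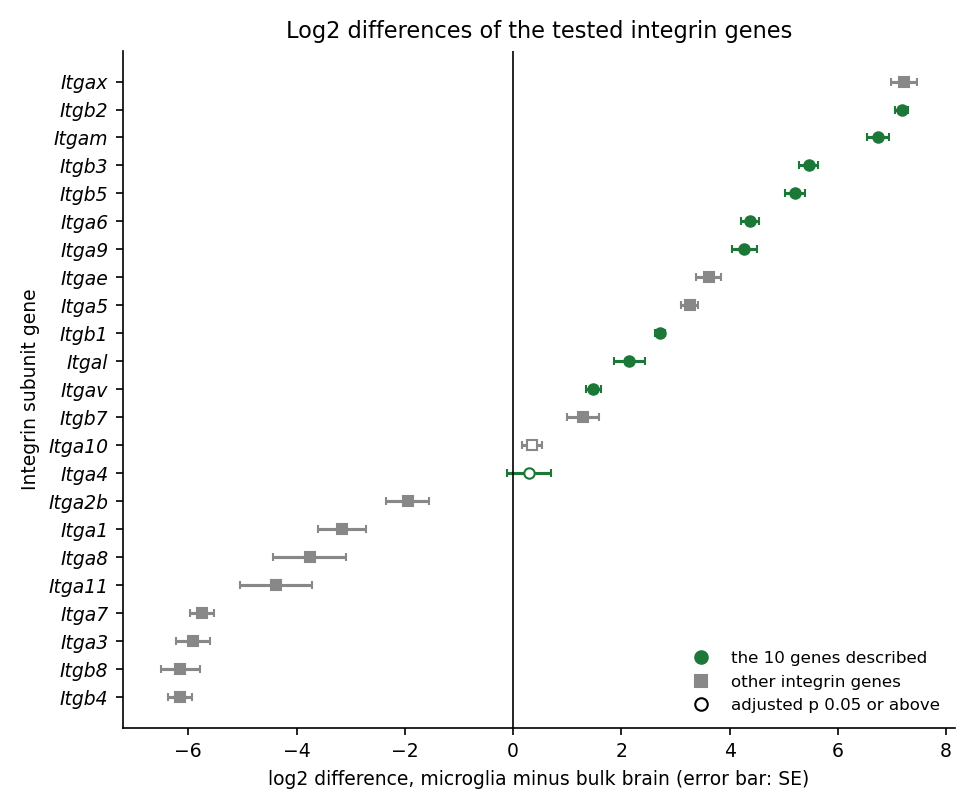
Log2 difference (microglia minus bulk brain) with its SE for the 23 tested integrin genes, sorted; green circles are the 10 genes described and grey squares the other 13, and open symbols did not pass the threshold. Values run from -6.15 for Itgb4 and Itgb8 to 7.22 for Itgax.

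Of 27 activator and adaptor genes tested and reported, 15 rose, 9 fell and 3 did not pass the threshold (edgeR, microglia relative to bulk brain; median log2 difference 0.85), where 37.2% of all genes tested were higher and 43.9% lower. Fermt3 (kindlin-3 of blood cells) stood at 415 ± 9.26 CPM in microglia, against 4.02 ± 1.25 CPM in bulk brain (SD, n = 5 each; log2 difference 6.69), and its paralog Fermt2 at 1.31 ± 0.78 CPM in microglia, against 82.0 ± 16.4 CPM in bulk brain (-5.96). Among the talins, Tln1 was higher (3.75), and Tln2 did not pass (195 ± 11.6 CPM in microglia, against 151 ± 54.2 CPM in bulk brain), with a log2 difference of 0.37 that was -0.12 against bulk brain replicates 3 to 5 alone. Apbb1ip, which encodes RIAM, the link between RAP1 and talin, had a log2 difference of 6.45. Syk, which had the largest rise of the 27 genes after Fermt3, stood at 430.1 ± 35.1 CPM in microglia, against 4.19 ± 0.303 CPM in bulk brain (log2 difference 6.68).

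Of the parvin genes, Parvg, the parvin of blood cells, differed by 6.14 and Parva by -7.40 on the log2 scale. Among the 27 genes, Bcar1, which encodes the adaptor p130Cas, had the largest fall (-7.75). Vcl and Parvb, named after their values were seen, did not pass, with log2 differences of -0.18 and 0.08. Ilk, an adaptor kinase of most adherent cells, had only 16 counts over all libraries and was not tested. It overlaps Taf10 and Rrp8 on the opposite strand, and its count was not read as a level.

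Of 34 ligand genes tested, 11 rose, 21 fell and 2 did not pass (edgeR, as above; median log2 difference -2.67), beside 37.2% higher and 43.9% lower among all genes. Icam1, the ligand of alpha-L and alpha-M beta-2, was the largest rise, at 254, 281, 236, 212 and 241 CPM in microglia, against 1.51, 1.24, 1.27, 1.81 and 1.60 CPM in bulk brain. All microglia values exceeded all bulk brain values, with a log2 difference of 7.36 ± 0.15 (SE). The junction protein gene F11r, another alpha-L ligand, followed at 6.39, and Tgfb1, whose latent peptide carries the RGD motif, at 6.11. C3, whose cleavage product is the complement ligand of alpha-M beta-2, was higher by 1.21 at low levels (4.74 ± 0.444 CPM in microglia, against 2.05 ± 0.305 CPM in bulk brain, SD, n = 5 each).

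Vcam1, the ligand of alpha-4 beta-1, did not pass, at 22.8 ± 2.46 CPM in microglia, against 23.5 ± 2.57 CPM in bulk brain, and neither did Icam2 (log2 difference -0.91, edgeR adjusted p = 0.053). The matrix ligands of alpha-v and alpha-5, Vtn (vitronectin) and Fn1 (fibronectin), were lower, at 2.12 ± 0.688 CPM and 7.72 ± 1.42 CPM in microglia and 76.2 ± 28.1 CPM and 57.2 ± 19.3 CPM in bulk brain. Icam5, the ICAM of forebrain neurons, differed by -6.78. Thy1, a neuronal surface protein that binds alpha-v beta-3 and alpha-M beta-2, was the largest fall, at 0.224 ± 0.135 CPM in microglia, against 489 ± 93.7 CPM in bulk brain (log2 difference -11.07). Svep1, which encodes a ligand of alpha-9, had 2 counts over the microglia libraries, a ratio of bulk brain to microglia of 799.9 (95% counting interval 221 to 6605).

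**Figure D5:**
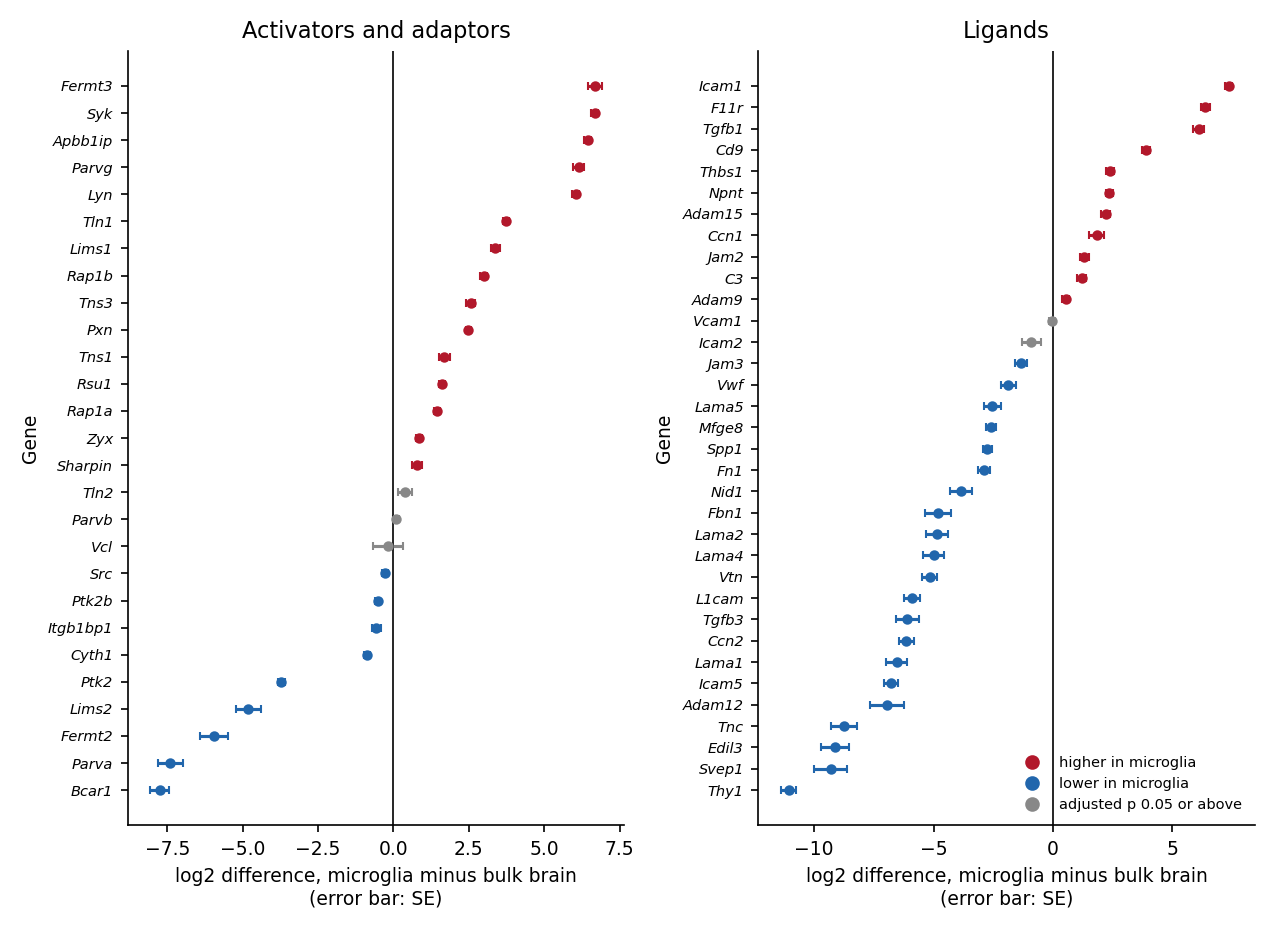
Log2 difference (microglia minus bulk brain) with its SE for 27 activator and adaptor genes (left) and 34 ligand genes (right); red is higher and blue lower in microglia, and grey did not pass the threshold. Fermt3 and Icam1 head the lists, at 6.69 and 7.36, and Bcar1 and Thy1 close them, at -7.75 and -11.07.

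By likeness of profile over the 10 libraries (smallest root mean square difference in mean-centred log2 CPM, among 12619 other coding genes whose mean reached 5 CPM in microglia or bulk brain), Itgam was nearest to Pik3r5 (0.11) and Ly9 (0.20), and Itgb2 to Adgre1 (0.11), which encodes the macrophage antigen F4/80, and Cd53 (0.13). Itgb3 was nearest to the microglial transcription factor gene Sall1 and to Pde3b (0.11 each), and Itgb5 to Sat1 (0.10) and Anxa3 (0.12). Lrp5 and Pld1 were the nearest genes of both Itga6 (0.06 and 0.10) and Itga9 (0.12 and 0.14). Itgav was nearest to Ddx6 (0.05) and Rbm26 (0.06), Itgb1 to Rassf2 and Trim26 (0.06 each) and Itgal to Rbpms (0.20) and Smpdl3b (0.27). Itga4, which split the bulk brain libraries, was nearest to Farp2 (0.17) and Fat3 (0.25). This measure is led by the size of the difference between the groups.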

How the data were processed

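Per the submitters' processing notes, CASAVA, HISAT2 2.2.1 and featureCounts 2.0 and the build GRCm39 (mm39) were used, without a stated role or order. Strand setting, annotation release and treatment of multi-mapped reads were not found in those notes. The authors deposited raw counts per gene (whole numbers, not normalized) for 56748 genes in 10 libraries, with symbols, coordinates and gene lengths (per the file headers). All 10 value columns were mapped to samples, and 0 rows lacked a gene identifier.

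The members and lists were chosen with earlier results of these data known. After filterByExpr (18969 genes) and TMM scaling, groups were compared by the quasi-likelihood test of edgeR 4.0.16 (R 4.3.3, limma 3.58.1) in a model of group alone, and p-values were adjusted by Benjamini-Hochberg over all genes (threshold 0.05). The SE is the size of the log2 difference divided by the square root of the F statistic. Ratios had 0.5 counts added per library and, like shares, were tested over the 252 splits of 5 against 5. A pseudocount of 0.1 CPM was used for profile likeness. A count of 3, the limit that a count of 0 allows, was 0.0821 to 0.125 CPM in a library, and intervals cover counting error only. Between replicates, chi-square divided by its degrees of freedom was 5.45 or more, above counting noise. Named genes were the 26 integrin genes, 15 chosen activators and ligands, the 2 largest rises and falls of each of those lists with at least 5 CPM, and the 2 genes nearest to each member. One listed activator gene is not reported here and was left out of that list's counts. The test and the permutation were tested on simulated data. Alternatives were other scalings, filters, DESeq2 1.42.0, limma-voom, coding genes only, the replicate number as a block, other pseudocounts and lengths, and leaving out libraries. Ratios, shares and plots were made with matplotlib 3.10.9, SciPy 1.17.1, pandas 2.3.3, numpy 2.4.6 and Python 3.11.15. The transcript lengths of GENCODE vM21 were used as lengths alone, since that annotation is of an earlier build.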

Additional observations from a re-analysis of the deposited data

Results flagged for a closer look

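Itgb5 in microglia replicate 5 stood at 2191 CPM, below the other 4 microglia libraries at 2366 to 2414 CPM, a gap that took 0.786 of the range of the group. Of 44 groups of 5 values examined in this way (levels, ratios and shares), 1 stood out, and chance alone marks about 1 in 20. The value is still far above the 83.0 CPM of the highest bulk brain library.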

How the results depend on the processing

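Of the 10 integrin genes, 9 were called higher under every scaling, filter and test tried and without each library in turn. The number called lower was 0 in those fits and 1 against bulk brain replicates 3 to 5 alone, where Itga4 was -0.38. The Itga4 log2 difference also turned negative without bulk brain replicate 1 (-0.08) or 2 (-0.06), within -0.08 to 0.39 over the libraries left out in turn, and Tln2 was -0.12 against replicates 3 to 5. Vcam1, which was never past the threshold, turned to 0.03 with upper-quartile scaling, to 0.08 with coding genes only and to 0.01 without microglia replicate 3 (-0.19 to 0.01 over the libraries left out in turn). Over all genes tested the median was -0.143 on the log2 scale, -0.308 when scaled by median of ratios and -0.328 by plain library size. Icam2 passed the threshold in 8 alternatives (log2 difference -1.07 to -1.20), and Itga10 with coding genes only (0.46).

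No pairing by replicate number was detected, with correlations of deviations between same-numbered libraries of -0.021 to 0.0101. The split of bulk brain replicates 1 and 2 from the others could hide a pairing in this measure, and the labels do not state one. With the replicate number as a block in edgeR, the integrin counts were 9 higher and 0 lower. For ratios and shares, 5 pairs cannot give an exact p under 0.062, so that block analysis decides nothing there: the paired differences were -5.04 for Itgal and Itgb2, -2.16 for Itga4 and Itgb1, 1.70 for Itga6 and Itgb1, 1.62 for Itga9 and Itgb1, -1.20, -3.97 and -3.74 for Itgav with Itgb1, Itgb3 and Itgb5 (adjusted p = 0.071 each, exact sign-flip permutation), and for the shares -24.5 points for Itgb1, 17.7 for Itgb2, 1.46 for Itgb3 and 29.7 for Itgb5 (adjusted p = 0.062 each, exact sign-flip permutation). Leaving out 1 library at a time, the Itgam to Itgb2 difference ranged from -0.54 to -0.28, and it passed the threshold without bulk brain replicate 4 (-0.54). The use of the longest coding transcript as length was chosen after seeing the data.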
